A study of Mus musculus with 14 samples.

Results

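The 55 genes described here are 24 genes of DNA replication and S phase and 31 genes of G2 phase and mitosis, listed by symbol and read in a table of 41381 Ensembl genes. All 55 were found, and all 55 were among the 17325 genes that passed a filter on low values, which asked for at least 1 TPM in at least 4 libraries. TPM measures the share of the transcripts of a library that a gene holds, corrected for gene length and scaled to the same total in each library. The data are 14 RNA-seq libraries of granule neuron progenitors (GNPs), which divide in the outer layer of the young cerebellum and become its granule neurons, purified on percoll gradients from mice at postnatal day 7. The study compared mice with intact, singly deleted and doubly deleted Chd7, which encodes an ATP-dependent chromatin remodeller.

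The 5 WT libraries were labelled Chd7 wild type (WT 1 to 3) or Atoh1-Cre negative (WT 4 and 5), and the study describes its WT mice as Chd7 f/f. The 5 Het libraries were labelled Chd7 het mutant (Het 1 and 2) or Atoh1-Cre::Chd7 f/+ (Het 3 to 5), with deletion of 1 copy. The 4 Hom libraries were labelled Chd7 hom mutant (Hom 1 and 2) or Atoh1-Cre::Chd7 f/f (Hom 3 and 4), with deletion of both. Atoh1-Cre is active in the granule cell lineage, so other cells in a preparation keep Chd7. The study also saw Chd7 protein left in the posterior lobe of its mutants, probably, in its view, because this Cre line recombines less efficiently. Whether these libraries hold such cells is not known. The strain was given as C56Bl6/J for WT 1 to 3, Het 1 and 2 and Hom 1 and 2, and as C57BL/6 for the other 7 libraries, while the study's methods name C57BL/6N for all its mice. By the study's methods, WT 1 to 3, Het 1 to 3 and Hom 1 and 2 were sequenced in batch 1 (8 libraries) and the other 6 in batch 2. Het 3 therefore carries the labels of the later set while it belongs to batch 1. No source says whether each library came from a separate animal or from pooled pups, so p-values measure the spread between these libraries.

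Chd7 levels did not follow the labels in batch 1. Chd7 was at 121, 152, 132, 203 and 272 TPM in WT 1 to 5, 166, 181, 150.3, 149 and 137 TPM in Het 1 to 5 and 172, 185, 149.9 and 126 TPM in Hom 1 to 4. In batch 1 both libraries labelled Hom lay above all 3 WT libraries, and in batch 2 all 4 Het and Hom libraries lay below both WT libraries. The Hom change was -0.11 (SE 0.20, adjusted p = 0.862) on the log2 scale, and the difference of that change between batches was -1.18 (adjusted p = 0.127; limma). A gene-level TPM sums reads over every exon, deleted or not. Het and Hom below mean the libraries so labelled. The GNP markers Atoh1 and Barhl1 were present in each library, at 20.8 to 50.6 and 237 to 433 TPM, and the 12 GNP markers together held 2511 to 3614 TPM.

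Before S phase, the Mcm2 to Mcm7 helicase is loaded onto DNA by Cdc6 and Cdt1, and with Cdc45 and the GINS complex it then unwinds the template ahead of the polymerases. E2F factors, held back by the retinoblastoma protein until G1 ends, activate many of these genes. Mitotic genes peak later, through the DREAM and B-Myb complexes and Foxm1, which act at CHR elements, and through NF-Y, which binds CCAAT boxes. Entry into mitosis is driven by Cdk1 with B cyclins, and exit by the anaphase promoting complex with Cdc20. In postnatal GNPs, Sonic hedgehog from Purkinje cells drives these divisions.

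The promoters of S phase and mitotic members held different shares of E2F and CHR letters and similar shares of the CCAAT box. Promoters, each from 250 bases before to 50 after the start site, were taken from RefSeq (GRCm38.p6), where 45 of the 55 genes matched (20 S phase and 25 mitotic). Letters were searched on both strands. E2F letters (TTTCGCGC, TTTGGCGC, TTTCCCGC or TTTGCCGC) stood in 9 of 20 S phase promoters (45%), 2 of 25 mitotic promoters (8%) and 2.6% of the promoters of all 27025 genes in the table. CHR letters (TTTGAA or TTCGAA) stood in 4 of 20 S phase (20%), 20 of 25 mitotic (80%) and 21.7% of all. Within the bases before the start site alone the mitotic share was 40%, with 19.6% of all genes. The CCAAT box was found in 75% of S phase, 80% of mitotic and 41.1% of all promoters. CHR and CCAAT letters occurred together in 72% of mitotic promoters and 8.61% of all. A single pair of hits of different motifs overlapped among the members. These matches describe letters and are not evidence of binding.

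**Figure D1:**
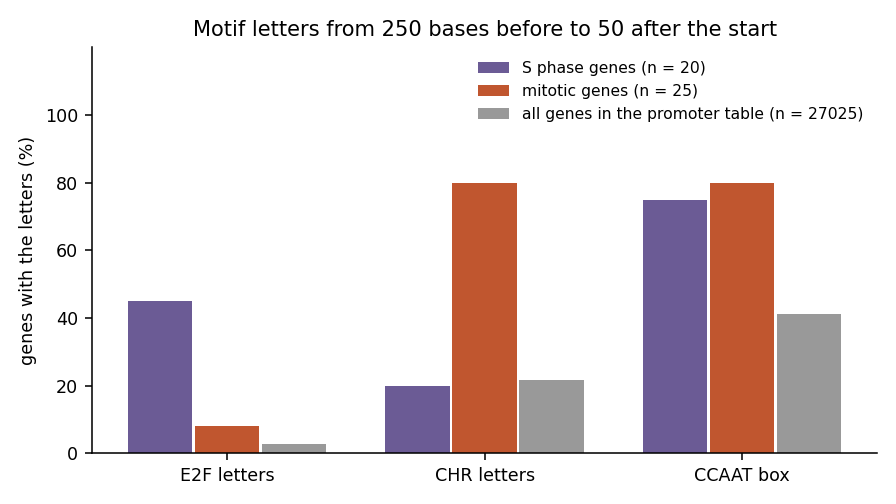
Share of genes (%, vertical axis) whose promoter window holds E2F letters, CHR letters or a CCAAT box, for S phase members, mitotic members and all genes in the promoter table. E2F letters were found in 45% of S phase genes and CHR letters in 80% of mitotic genes, against 2.6% and 21.7% of all genes.

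Printed below are stretches before the start site of 6 members, read 5′ to 3′ on the strand of the gene, with motif letters in capitals. Mcm6 is shown because it is the member called between genotypes, and Mcm5 as a helicase partner that was not called. Cdk1, Cdc20, Kif11 and Ncapg are mitotic genes that all hold CHR letters before the start site, as 10 of 25 mitotic promoters did. They are examples and do not stand for the other mitotic genes.
Mcm6 (chr1:128359706-128359815, minus strand): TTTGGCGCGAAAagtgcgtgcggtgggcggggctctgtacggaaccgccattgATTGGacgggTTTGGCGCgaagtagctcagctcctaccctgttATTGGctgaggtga
Mcm5 (chr8:75109339-75109448, plus strand): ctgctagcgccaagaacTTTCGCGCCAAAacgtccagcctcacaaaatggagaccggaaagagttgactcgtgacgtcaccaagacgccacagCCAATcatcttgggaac
Cdk1 (chr10:69352913-69353052, minus strand): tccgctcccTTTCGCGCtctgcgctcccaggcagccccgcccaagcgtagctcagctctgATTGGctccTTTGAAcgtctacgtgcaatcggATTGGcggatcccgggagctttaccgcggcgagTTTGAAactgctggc
Cdc20 (chr4:118437344-118437453, minus strand): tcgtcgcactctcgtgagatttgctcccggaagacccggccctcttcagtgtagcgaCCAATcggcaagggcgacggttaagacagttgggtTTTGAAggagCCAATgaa
Kif11 (chr19:37376272-37376381, plus strand): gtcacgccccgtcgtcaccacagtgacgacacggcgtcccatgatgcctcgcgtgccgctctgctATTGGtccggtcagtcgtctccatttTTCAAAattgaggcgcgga
Ncapg (chr5:45669815-45669924, plus strand): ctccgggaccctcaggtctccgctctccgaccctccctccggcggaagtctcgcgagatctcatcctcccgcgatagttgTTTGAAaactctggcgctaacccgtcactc
The capitals are E2F letters and reversed CCAAT boxes (ATTGG) in Mcm6, and E2F letters and a CCAAT box in Mcm5. In Cdk1 they are E2F letters, CHR letters and reversed CCAAT boxes, and in Cdc20 CHR letters and CCAAT boxes. In Kif11 they are reversed CHR letters (TTCAAA) and a reversed CCAAT box, and in Ncapg CHR letters. Outside the printed stretches, Ncapg also holds reversed E2F letters from 32 to 39 bases after the start site and a reversed CCAAT box before it. Mcm5 and Cdk1 hold further CCAAT boxes there.

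The members were abundant transcripts. Mean levels over the 14 libraries ran from 23.7 to 523 TPM among S phase genes (median 79.2) and from 31.3 to 282 TPM among mitotic genes (median 85.5). Pcna, the sliding clamp of the replicative polymerases, was the highest S phase gene, and Mki67, which coats mitotic chromosomes, the highest mitotic gene. The polymerase subunit Pola1 was the lowest S phase member and the cytokinesis protein Anln the lowest mitotic one. The 55 genes together held 0.503% (WT 4) to 0.721% (Het 3) of the TPM of a library. Mitotic genes varied more across libraries, with a median coefficient of variation of 18.2%, against 12.1% for S phase genes and 11.8% for the 7308 tested genes whose means lay in the same range.

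The mean of log2(TPM + 1) over the mitotic genes was 6.69, 6.66, 6.80, 6.12 and 6.28 in WT 1 to 5. It was 6.66, 6.34, 6.92, 6.29 and 6.37 in Het 1 to 5. For the Hom libraries it was 6.61, 6.46, 6.67 and 6.46. Het 3 was the highest library for 22 of the 31 mitotic genes and WT 4 the lowest for 24. Among the S phase genes the mean was 6.29, 6.31, 6.32, 6.22 and 6.43 in the WT libraries in order of number, 6.50, 6.15, 6.45, 6.27 and 6.32 in those of Het, and 6.50, 6.23, 6.39 and 6.35 in those of Hom. The 3 genotypes overlapped for both groups of genes. In such bulk libraries a smaller share of dividing cells and less RNA of these genes per cell cannot be told apart. WT 5, next to the lowest library in mean mitotic level, was the highest library for 6 of the 24 S phase genes.

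**Figure D2:**
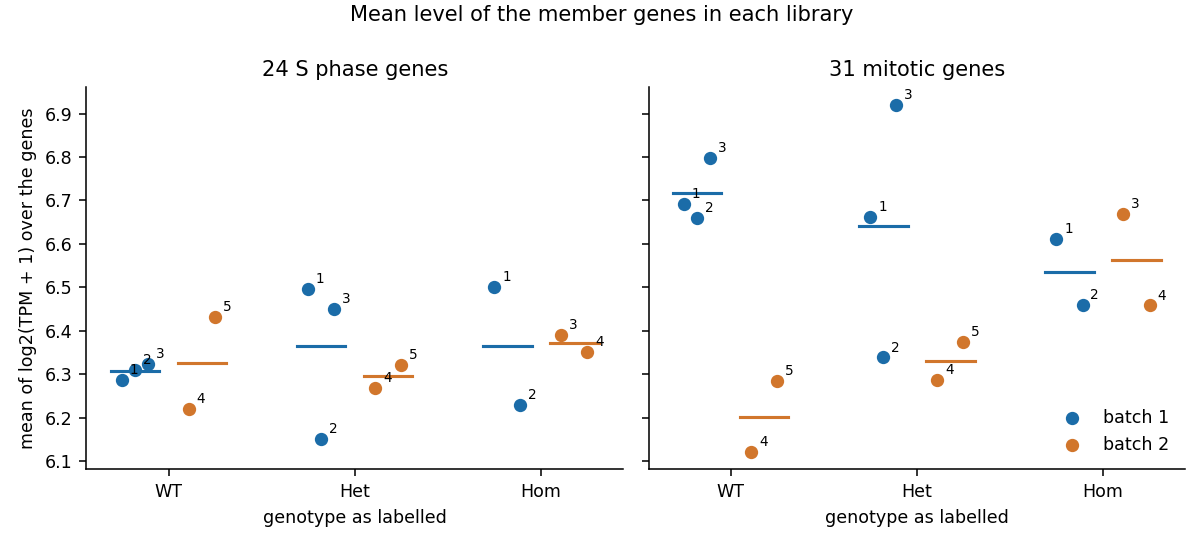
Mean log2(TPM + 1) over the 24 S phase genes (left) and the 31 mitotic genes (right) in each library, by genotype as labelled, with points numbered by replicate, coloured by sequencing batch, and lines at the mean of each genotype and batch. Mitotic genes were at 6.66 to 6.80 in WT libraries of batch 1 and at 6.12 and 6.28 in those of batch 2, while S phase genes of the WT libraries stayed between 6.22 and 6.43.

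In Hom against WT, 1 of the 55 members was called, the helicase gene Mcm6, which was higher in Hom. A gene is called where limma, fitted with genotype and batch on log2(TPM + 1) of all 17325 genes, gave a Benjamini-Hochberg adjusted p under 0.05. Over all genes, 1.27% were called higher and 1.41% lower. The median log2 change was 0.057 for the S phase genes (15 of 24 positive) and 0.075 for the mitotic genes (24 of 31 positive), beside 0.024 for all genes (55.5% positive). No mitotic gene was called, and at an unadjusted p under 0.05 no mitotic gene passed either, while E2f1 passed as lower and Mcm6 as higher. At that threshold 8.51% of all genes were higher and 6.42% lower. On values with the batch effect subtracted, the exact form of the Kruskal-Wallis test compared all 3 genotypes. It gave an unadjusted p under 0.01 for none of the 55 members and for 4.63% of all genes.

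**Figure D3:**
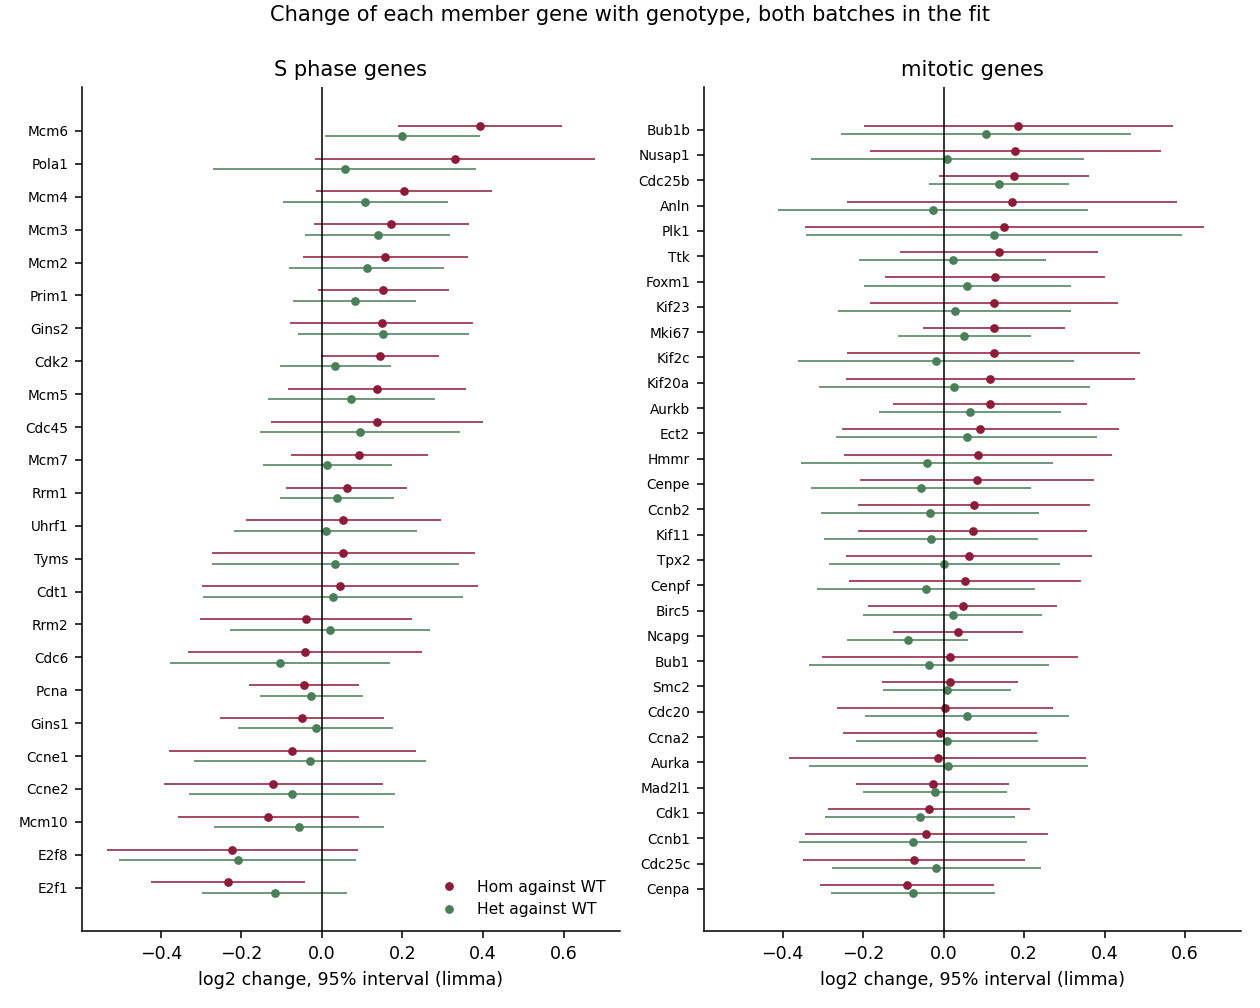
Log2 change of each member in Hom (red) and Het (green) against WT from limma with batch in the model (horizontal axis), with 95% intervals, S phase genes left and mitotic genes right. The Hom interval of Mcm6 (0.19 to 0.60) lies above 0, and the mitotic intervals all include 0.

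Mcm6, a subunit of the replicative helicase (ENSMUSG00000026355, chr1:128331590-128359664 on GRCm38, minus strand), was at 179, 181, 186, 169 and 184 TPM in WT 1 to 5, 227, 173, 214, 194 and 229 TPM in Het 1 to 5 and 255, 198, 234 and 267 TPM in Hom 1 to 4. It was the only member for which all 4 Hom libraries lay above all 5 WT libraries, a pattern that 2.91% of all genes showed, and the Het libraries overlapped both. The log2 change was 0.39 (SE 0.094, adjusted p = 0.0437) in Hom, with a 95% interval of 0.19 to 0.60, and 0.20 (SE 0.089, adjusted p = 0.811) in Het. It was 0.30 within batch 1 and 0.50 within batch 2. The call was held in 4 of 14 fits that left out 1 library (Het 1, Het 2, Het 5 or Hom 2) and lost in the other 10 (adjusted p 0.0149 to 0.147 over the 14), and median-ratio scaling (adjusted p = 0.0711) and the replicate number as a block (0.0524) ended it.

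No other helicase gene was called. Among the 12 genes of the helicase and its loading, Mcm6 included, the Hom changes ran from -0.13 to 0.39 and 9 were positive. Mcm2 was at 96.7, 99.9, 94.9, 119 and 123 TPM in WT 1 to 5, 127, 97.5, 118, 111 and 122 TPM in Het 1 to 5 and 131, 97.6, 128 and 126 TPM in Hom 1 to 4, and its Hom change was 0.16 (SE 0.095, adjusted p = 0.479). WT 1 to 3, Het 2 and Hom 2 were the 5 lowest libraries. Mcm5 was at 107, 104, 106, 104 and 126 TPM in WT 1 to 5, 128, 95.5, 115, 112 and 125 TPM in Het 1 to 5 and 132, 94.8, 135 and 127 TPM in Hom 1 to 4. Mcm5 had a Hom change of 0.14 (SE 0.10, adjusted p = 0.591). Mcm4, at 59.7, 65.9, 64.0, 64.4 and 80.8 TPM in WT 1 to 5, 80.3, 58.7, 79.8, 69.1 and 73.6 TPM in Het 1 to 5 and 82.7, 69.5, 78.3 and 79.3 TPM in Hom 1 to 4, had a change of 0.20 (SE 0.10, adjusted p = 0.371). Mcm3, chosen for its Het change, was at 96.2, 104, 95.5, 102 and 119 TPM in WT 1 to 5, 128, 100.3, 114, 111 and 117 TPM in Het 1 to 5 and 132, 100.3, 119 and 118 TPM in Hom 1 to 4, and its Het change was 0.14 (SE 0.084, adjusted p = 0.847). Hom 1 was the highest library of both Mcm2 and Mcm3.

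Of the GINS and loading factors, Gins2, a subunit of the GINS complex, was at 47.1, 46.2, 45.1, 44.2 and 49.2 TPM in WT 1 to 5, 59.4, 47.6, 55.7, 48.2 and 48.2 TPM in Het 1 to 5 and 57.2, 40.1, 57.0 and 53.7 TPM in Hom 1 to 4. Gins2 had a Het change of 0.15 (SE 0.099, adjusted p = 0.857). Cdc6, which loads the helicase, was at 25.1, 24.1, 25.2, 25.5 and 34.4 TPM in WT 1 to 5, 30.4, 22.8, 25.3, 24.3 and 21.6 TPM in Het 1 to 5 and 32.1, 24.4, 25.8 and 21.7 TPM in Hom 1 to 4, and its Hom and Het changes were -0.042 (SE 0.13, adjusted p = 0.93) and -0.10 (SE 0.13, adjusted p = 0.925). WT 5 stood above the other 4 WT libraries. Mcm10, which links the helicase to polymerase alpha, was at 40.5, 45.5, 42.1, 43.8 and 54.5 TPM in WT 1 to 5, 45.6, 38.5, 48.0, 42.2 and 42.6 TPM in Het 1 to 5 and 46.6, 34.6, 45.3 and 39.5 TPM in Hom 1 to 4. Mcm10 had a Hom change of -0.13 (SE 0.10, adjusted p = 0.609).

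At the replication fork, Pcna was at 586, 529, 604, 458 and 490.1 TPM in WT 1 to 5, 588, 507, 572, 498 and 450.1 TPM in Het 1 to 5 and 581, 561, 422 and 469.9 TPM in Hom 1 to 4. Its Hom change was -0.045 (SE 0.063, adjusted p = 0.813), with an interval of -0.18 to 0.091, and the genotypes overlapped throughout. Pola1, the catalytic subunit of polymerase alpha, was at 26.1, 24.2, 29.9, 13.2 and 17.9 TPM in WT 1 to 5, 27.4, 20.3, 26.5, 16.1 and 23.4 TPM in Het 1 to 5 and 28.4, 25.4, 24.6 and 27.7 TPM in Hom 1 to 4. WT 4, WT 5 and Het 4 were the lowest libraries, and the Hom change was 0.33 (SE 0.16, adjusted p = 0.361). Within batch 1 the Pola1 change was 0.012, and within batch 2 0.72. Rrm2, the small subunit of ribonucleotide reductase that makes deoxynucleotides, was at 183, 206, 206, 168 and 182 TPM in WT 1 to 5, 223, 146, 230.3, 173 and 194 TPM in Het 1 to 5 and 214, 159.7, 179.6 and 178 TPM in Hom 1 to 4. Rrm2 had a Hom change of -0.039 (SE 0.12, adjusted p = 0.928).

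Among the 5 regulators of the G1 to S transition, 4 had a negative Hom change and none was called. E2f1, an activator of replication genes, was at 85.4, 92.1, 87.5, 86.5 and 113 TPM in WT 1 to 5, 86.8, 74.1, 85.9, 84.5 and 95.8 TPM in Het 1 to 5 and 78.5, 66.8, 93.6 and 81.2 TPM in Hom 1 to 4. Its Hom change was -0.23 (SE 0.089, adjusted p = 0.23), at -0.28 in batch 1 and -0.18 in batch 2, and its Het change was -0.12 (SE 0.083, adjusted p = 0.874). E2f8, an E2F that represses, was at 28.2, 37.7, 32.3, 40.6 and 46.2 TPM in WT 1 to 5, 36.8, 25.7, 36.1, 31.8 and 28.1 TPM in Het 1 to 5 and 33.1, 30.7, 35.4 and 26.7 TPM in Hom 1 to 4, and its changes were -0.22 (SE 0.14, adjusted p = 0.52) in Hom and -0.21 (SE 0.14, adjusted p = 0.857) in Het. Both genes were highest in WT 5. Ccne1, the cyclin E partner of Cdk2, was at 25.6, 27.7, 25.5, 33.9 and 38.6 TPM in WT 1 to 5, 29.4, 22.7, 35.0, 32.9 and 27.6 TPM in Het 1 to 5 and 27.8, 33.5, 24.9 and 28.6 TPM in Hom 1 to 4. Ccne1 had a Hom change of -0.074 (SE 0.14, adjusted p = 0.869).

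Among the mitotic genes, those that start mitosis overlapped between genotypes. Cdk1 was at 294, 257, 271, 185 and 215 TPM in WT 1 to 5, 276, 199, 283, 198 and 217 TPM in Het 1 to 5 and 252, 212, 242 and 219 TPM in Hom 1 to 4. Cdk1 had a Hom change of -0.037 (SE 0.12, adjusted p = 0.93) and an interval of -0.29 to 0.21. Ccnb1, its cyclin, was at 322, 278, 328, 175 and 199.9 TPM in WT 1 to 5, 258, 225, 333, 203 and 201 TPM in Het 1 to 5 and 249.8, 229, 261 and 216 TPM in Hom 1 to 4, and its changes were -0.043 (SE 0.14, adjusted p = 0.931) in Hom and -0.076 (SE 0.13, adjusted p = 0.957) in Het. WT 1 to 3 and Het 3 were the 4 highest libraries of Ccnb1, and WT 4 and WT 5 the lowest. Plk1, the mitotic Polo kinase, was at 60.6, 65.9, 63.0, 45.0 and 44.1 TPM in WT 1 to 5, 63.1, 40.1, 91.3, 54.4 and 61.8 TPM in Het 1 to 5 and 61.6, 42.1, 84.4 and 62.5 TPM in Hom 1 to 4, and its changes of 0.15 (SE 0.23, adjusted p = 0.83) in Hom and 0.13 (SE 0.22, adjusted p = 0.957) in Het had the largest SE of the 55 members. Het 2 and Hom 2 were the lowest for Plk1, and Het 3 and Hom 3 the highest.

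The Cdc25 phosphatases activate Cdk1. Cdc25b was at 69.6, 74.0, 74.9, 73.1 and 79.7 TPM in WT 1 to 5, 89.8, 77.3, 94.4, 74.1 and 74.9 TPM in Het 1 to 5 and 79.4, 76.7, 94.2 and 86.5 TPM in Hom 1 to 4, and its changes were 0.18 (SE 0.086, adjusted p = 0.364) in Hom and 0.14 (SE 0.081, adjusted p = 0.842) in Het. Cdc25c was at 39.5, 38.1, 41.8, 26.8 and 33.7 TPM in WT 1 to 5, 38.9, 33.7, 46.0, 31.8 and 27.8 TPM in Het 1 to 5 and 36.8, 29.5, 38.2 and 29.0 TPM in Hom 1 to 4. Cdc25c had a Hom change of -0.073 (SE 0.13, adjusted p = 0.856). Foxm1, an activator of mitotic genes, was at 107, 128, 120.1, 122 and 129 TPM in WT 1 to 5, 131, 110.2, 157, 103 and 137 TPM in Het 1 to 5 and 119.8, 116, 168 and 135 TPM in Hom 1 to 4. Foxm1 had a Hom change of 0.13 (SE 0.13, adjusted p = 0.703). Hom 3 was its highest library and Het 4 its lowest.

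For the spindle and its checkpoint, Bub1b, a checkpoint kinase relative, was at 99.9, 95.9, 106, 53.3 and 67.7 TPM in WT 1 to 5, 99.2, 74.9, 130.3, 68.2 and 80.3 TPM in Het 1 to 5 and 91.2, 81.6, 104 and 88.5 TPM in Hom 1 to 4, and its changes were 0.19 (SE 0.18, adjusted p = 0.69) in Hom, the largest of the mitotic genes, and 0.11 (SE 0.17, adjusted p = 0.954) in Het. Nusap1, which bundles spindle microtubules, was at 99.7, 87.7, 112, 52.0 and 61.7 TPM in WT 1 to 5, 96.2, 65.8, 112, 63.3 and 72.5 TPM in Het 1 to 5 and 93.1, 83.3, 89.1 and 84.2 TPM in Hom 1 to 4. Nusap1 had a Hom change of 0.18 (SE 0.17, adjusted p = 0.682). In both genes WT 4 and WT 5 were among the 3 lowest libraries.

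On the chromosomes, Mki67, the proliferation antigen Ki-67, was at 289, 287, 322, 225 and 241 TPM in WT 1 to 5, 296, 277, 348, 225 and 271 TPM in Het 1 to 5 and 295, 301, 280.3 and 283 TPM in Hom 1 to 4. Mki67 had a Hom change of 0.12 (SE 0.082, adjusted p = 0.523) and an interval of -0.052 to 0.30. Cenpa, the centromeric histone, was at 166, 169, 171, 144 and 157 TPM in WT 1 to 5, 157, 143, 177, 149 and 139.9 TPM in Het 1 to 5 and 145, 133, 189 and 141 TPM in Hom 1 to 4, and its changes were -0.091 (SE 0.10, adjusted p = 0.741) in Hom and -0.075 (SE 0.094, adjusted p = 0.929) in Het. Of the chromosomal passenger complex, the kinase Aurkb was at 127, 142, 135, 111 and 125 TPM in WT 1 to 5, 141, 117, 165, 113 and 139 TPM in Het 1 to 5 and 134, 126, 163 and 131 TPM in Hom 1 to 4. Aurkb had a Hom change of 0.12 (SE 0.11, adjusted p = 0.694). Its partner Birc5 (survivin) was at 134, 128, 144, 99.4 and 105 TPM in WT 1 to 5, 132, 108, 152, 113 and 114 TPM in Het 1 to 5 and 126, 111, 130.1 and 128 TPM in Hom 1 to 4. Birc5 had a Hom change of 0.047 (SE 0.11, adjusted p = 0.894). For each of these 4 genes the Hom and WT libraries overlapped. Ncapg, a condensin subunit, was at 96.1, 94.95, 109, 65.2 and 71.1 TPM in WT 1 to 5, 88.9, 80.7, 98.9, 69.5 and 68.5 TPM in Het 1 to 5 and 92.6, 108, 72.3 and 72.3 TPM in Hom 1 to 4, and its Het change of -0.089 (SE 0.07, adjusted p = 0.885) was the most negative of the mitotic genes.

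In Het against WT and in Hom against Het no member was called by limma. For Het the median change was 0.030 for S phase and 0.0084 for mitotic genes, and 1 member, Mcm6, passed an unadjusted p under 0.05 as higher. Over all genes, 3.2% were higher and 2.88% lower at that threshold in Het, and 0.00577% were called higher and 0% lower. For Hom against Het the medians were 0.029 and 0.061, and no member passed an unadjusted p under 0.05. Over all genes, 3.05% were higher and 3.13% lower at that threshold, and 0.15% were called higher and 0.277% lower.

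Further genes of the same processes were read from lists. Of 52 further replication and S phase genes, 2 were called higher in Hom and none lower (median 0.071), where 1.27% and 1.41% of all genes were. They were Rfc1, the large subunit of the clamp loader, and Pola2, the regulatory subunit of polymerase alpha. Rfc1 was at 70.7, 76.6, 77.5, 60.9 and 70.1 TPM in WT 1 to 5, 83.4, 70.8, 88.5, 67.4 and 82.3 TPM in Het 1 to 5 and 97.0, 88.8, 89.3 and 99.0 TPM in Hom 1 to 4. Rfc1 had a Hom change of 0.40 (SE 0.085, adjusted p = 0.0219). Pola2 was at 39.6, 47.9, 44.1, 42.4 and 47.0 TPM in WT 1 to 5, 49.5, 48.0, 54.2, 49.2 and 55.2 TPM in Het 1 to 5 and 57.0, 49.8, 63.0 and 59.7 TPM in Hom 1 to 4. Pola2 had a Hom change of 0.36 (SE 0.076, adjusted p = 0.0229). All 4 Hom libraries lay above all 5 WT libraries for both genes, a pattern that 2.91% of all genes showed. Both were named because they were called in these same libraries. Of 64 further mitotic genes none was called by limma or passed an unadjusted p under 0.05 in Hom (median 0.038). No gene of either list was called in Het or in Hom against Het. At an unadjusted p under 0.05, 2 of the 52 further S phase genes were higher in Het (3.85%, beside 3.2% of all genes). In Hom against Het 3 of the 52 were higher (5.77%, beside 3.05% of all genes). No further mitotic gene passed in either contrast.

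More mitotic genes were called between the sequencing batches than between genotypes. In batch 2, 12 of 31 mitotic genes were lower and none higher (median -0.29), where 5.61% of all genes were called lower and 7.88% higher (median 0.022). They were the condensin genes Ncapg and Smc2, the checkpoint genes Mad2l1, Ttk and Bub1, the centromere proteins Cenpe and Cenpf, the spindle genes Kif11 and Hmmr, the cytokinesis motor Kif23, Mki67 and Ccnb1. Ncapg changed by -0.46 (SE 0.06, adjusted p = 0.001), from 80.7 to 109 TPM in the 8 batch 1 libraries to 65.2 to 72.3 TPM in the 6 of batch 2. Smc2, at 126, 114, 139, 82.4 and 91.2 TPM in WT 1 to 5, 133, 108, 140.2, 88.6 and 87.1 TPM in Het 1 to 5 and 128, 119, 87.9 and 93.6 TPM in Hom 1 to 4, changed by -0.50 (SE 0.063, adjusted p = 0.000847). Cenpe changed by -0.59 (SE 0.11, adjusted p = 0.00539), and Ccnb1 by -0.40 (SE 0.11, adjusted p = 0.0334).

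Of the 24 S phase genes, 4 were lower in batch 2 and 1 was higher (median 0.00059). The lower ones were Pcna, with -0.28 (SE 0.051, adjusted p = 0.00465), the primase gene Prim1, with -0.28 (SE 0.061, adjusted p = 0.0102), Ccne2, with -0.35 (SE 0.10, adjusted p = 0.0361), and the reductase subunit Rrm1, with -0.19 (SE 0.056, adjusted p = 0.0434). Cdt1, which loads the helicase together with Cdc6, was higher by 0.48 (SE 0.13, adjusted p = 0.0281). It was at 45.2, 54.6, 46.5, 95.6 and 98.4 TPM in WT 1 to 5, 71.9, 58.2, 51.9, 78.7 and 70.0 TPM in Het 1 to 5 and 71.0, 62.2, 73.0 and 67.9 TPM in Hom 1 to 4. WT 4 and WT 5 were the highest libraries of Cdt1, and WT 1 and WT 3 the lowest.

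In the further lists, 20 of 64 mitotic genes were lower in batch 2 and none higher, and 8 of 52 S phase genes were lower and 1 higher, beside 5.61% of all genes lower and 7.88% higher. Among those with the smallest adjusted p were the kinetochore genes Spc25 (-0.53, adjusted p = 0.00153) and Cenpk (-0.51, 0.00192), the Cdk1 partner Cks2 (-0.60, 0.0024), Dbf4, which activates the Cdc7 kinase at origins (-0.34, 0.00241), and the condensin gene Smc4 (-0.50, 0.004). In the 5 WT libraries alone, 21 mitotic genes were lower in batch 2 (median -0.55) and 2 S phase genes, Mcm2 and Cdt1, were higher, where 2.17% of all genes were called lower and 3.45% higher. The counts depended on Het 3: placed in batch 2, as its labels are worded, it left 1 mitotic gene (Ncapg) and no S phase gene called, and over all genes the share called higher fell from 7.88% to 2.86% and the share called lower from 5.61% to 1.27%. Without Het 4, WT 4 or WT 5 the mitotic count was 6, 6 and 7, and the S phase count of 5 was 2 without WT 3, WT 4 or Het 4 and 3 without WT 1, WT 5, Het 1, Het 3 or Hom 1. Batch cannot be told apart from anything else that changed between the sets.

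**Figure D4:**
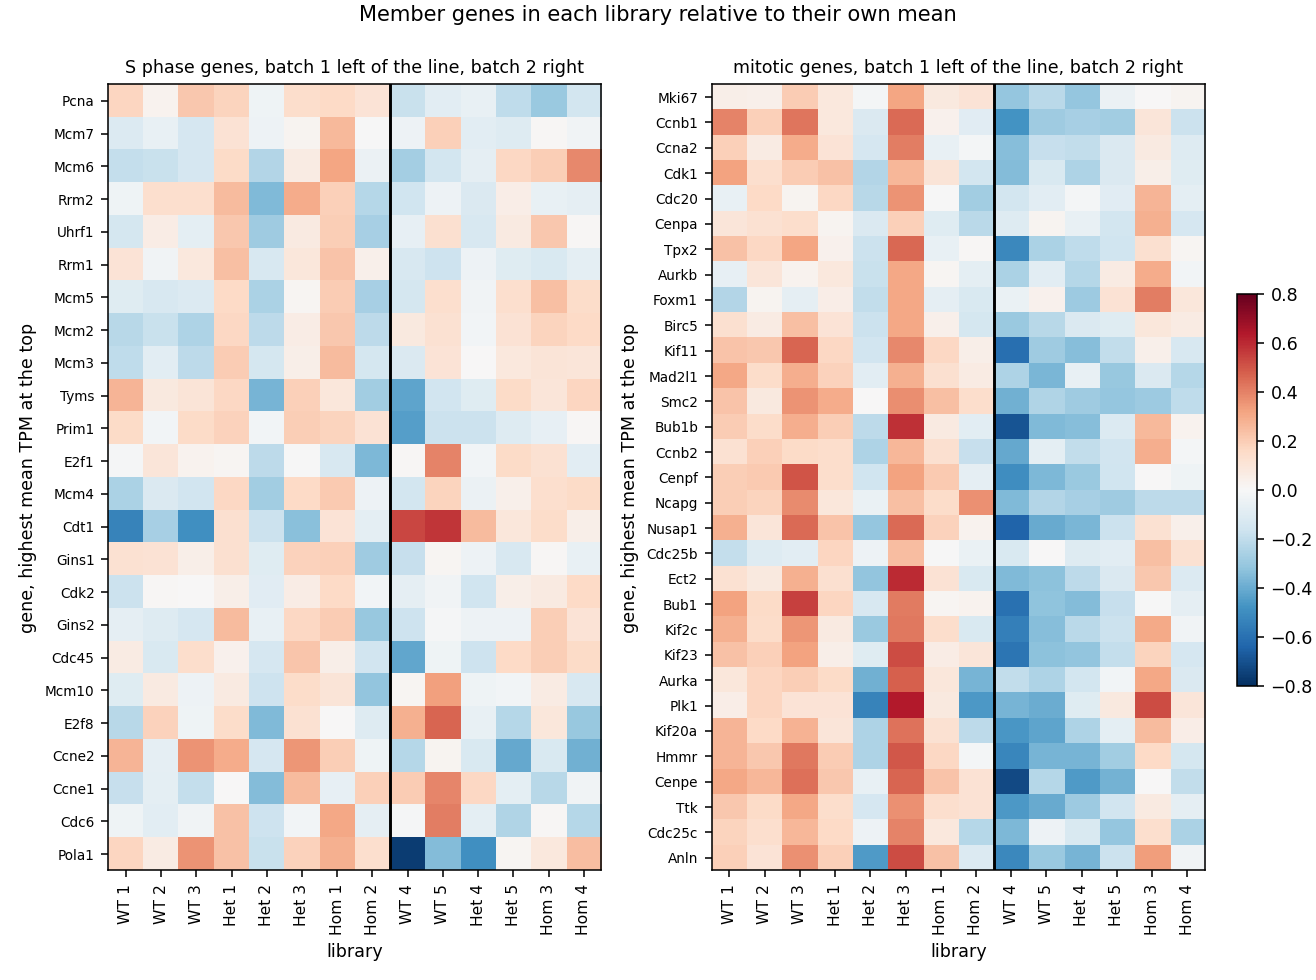
Log2(TPM + 1) of each member (rows, highest mean TPM at the top) in each library (columns, batch 1 left of the line), minus the mean of that gene over the 14 libraries. Mitotic genes are mostly above their mean in WT 1 to 3 and Het 3 and below it in WT 4 and WT 5, and Cdt1 shows the opposite among the WT libraries.

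The median Hom change of the mitotic genes had opposite signs in the 2 batches. Within batch 1 the median was -0.19 and 2 of 31 were positive, and within batch 2 it was 0.38 and 31 of 31 were positive. The mean mitotic log2(TPM + 1) was 6.72 in WT and 6.54 in Hom of batch 1. It was 6.20 in WT and 6.56 in Hom of batch 2. Between batches the WT level, which rests on 2 libraries in batch 2, thus differed more than the Hom level. In batch 1 both Hom libraries lay below all 3 WT libraries for 18 mitotic genes, as they did for 15.3% of all genes, and above them for 1, against 17.6% of all genes. In batch 2 both Hom libraries lay above both WT libraries for 28 mitotic genes, against 27.0% of all genes, and below them for none, against 21.9%. For 16 mitotic genes, Cdk1, Ccnb1, Bub1, Kif11 and Birc5 among them, both were true, as they were for 4.14% of all genes. The reverse, above in batch 1 and below in batch 2, held for 2 S phase genes (Cdt1 and Ccne1), no mitotic gene and 3.91% of all genes. The mitotic genes moved together by library: within batch 2, WT 4 was lowest for 26 of the 31 and Hom 3 highest for 28. Their counts are therefore not independent and rest on few libraries. The Hom change of Ccnb1 was -0.37 in batch 1 and 0.34 in batch 2, that of Cdk1 -0.24 and 0.21, that of Plk1 -0.30 and 0.69, and that of Bub1b -0.22 and 0.66.

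The test of this difference called no member after adjustment. In the interaction of genotype and batch, all 31 mitotic differences were positive (median 0.56), 18 passed an unadjusted p under 0.05 and none reached an adjusted p under 0.05, while of all genes 8.35% passed the unadjusted threshold as higher and 0% were called higher. The smallest mitotic p was that of the cytokinesis motor Kif20a, with a difference of 0.88 (SE 0.25, adjusted p = 0.147). Ccnb1 had 0.71 (SE 0.22, adjusted p = 0.16), and Plk1 had 0.998 (adjusted p = 0.243). Without Hom 2, Hom 3 or WT 4 the 18 became 9, and with Het 3 placed in batch 2 they became 12. The S phase genes had a median difference of 0.0060, with 2 higher (Pola1 and Tyms) and 3 lower (Cdt1, Ccne1 and Mcm7) at an unadjusted p under 0.05, where 8.85% of all genes were lower at that threshold and 0.0115% were called lower. Cdt1, with a difference of -0.90 (SE 0.19, adjusted p = 0.127), had a Hom change of 0.44 in batch 1 and -0.46 in batch 2. For Het the median difference was 0.21 for mitotic and -0.087 for S phase genes, no member was called, and 0% and 0.00577% of all genes were called higher and lower.

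**Figure D5:**
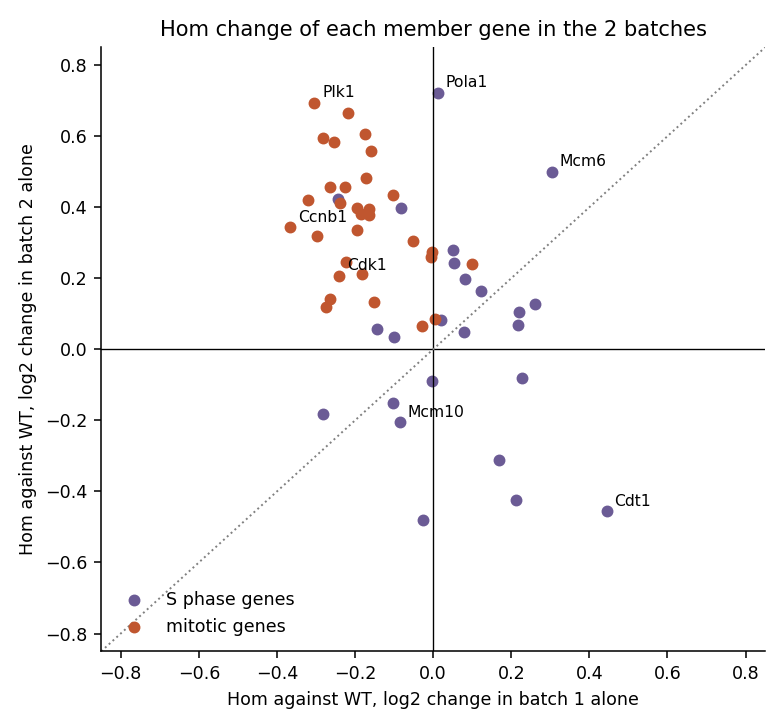
Hom against WT log2 change of each member in batch 1 alone (horizontal axis) and in batch 2 alone (vertical axis), S phase genes in purple and mitotic genes in orange, with a dotted line where both are equal. The mitotic genes lie mostly at upper left, with medians of -0.19 and 0.38, and Mcm6 lies at 0.30 and 0.50.

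Marker lists of other cells also varied between these libraries. The 7 endothelial markers summed to 27.7 to 37.7 TPM in WT 1 to 3, 225 and 127 TPM in WT 4 and WT 5, 21.1 TPM (Het 3) to 483 TPM (Het 2) in Het and 118 to 366 TPM in Hom. All 7 had a positive Hom change (median 1.52), 6 at an unadjusted p under 0.05, and none was called by limma. The 4 libraries lowest in these markers, WT 1 to 3 and Het 3, included the 3 highest in mean mitotic level, and Het 2, the highest, was the lowest of batch 1 for 26 of 31 mitotic genes. Other libraries broke this order: Hom 3, at 225 TPM of endothelial markers, was at 6.67 in mean mitotic log2 level, Het 1, at 159.7 TPM, was at 6.66, and WT 5, at 127 TPM, was at 6.28. Of the defining genes, Cldn5 ran from 5.39 to 229 TPM and Flt1 from 0.79 to 26.5 TPM. WT 1 to 3 and Het 3 were also the 4 libraries highest in the 9 astroglial markers, at 1177 to 1879 TPM, with WT 4 next at 893 TPM. The endothelial and astroglial lists thus set the same libraries apart in opposite directions. The 13 postmitotic granule neuron markers summed to 2639 to 2851 TPM in WT 1 to 3, 3317 and 3417 TPM in WT 4 and WT 5, 2850 to 3058 TPM in Het and 2203 to 2725 TPM in Hom. The 12 GNP markers summed to 2511 to 2632 TPM in WT 1 to 3, 3461 and 3614 TPM in WT 4 and WT 5, 2907 to 3149 TPM in Het and 2810 to 3253 TPM in Hom. In Hom against WT their median change was 0.22, with 9 of 12 positive. At an unadjusted p under 0.05, 5 of the 12 GNP markers were higher and 2 lower, and 1 was called higher by limma. The 9 astroglial markers ranged from 336 TPM (Hom 3) to 1879 TPM (WT 2), 8 oligodendroglial markers from 529 to 1426, 7 microglial from 179 to 424, 6 meningeal from 58.9 to 248.6, 6 of red blood cells from 141 to 715, 7 of inhibitory interneurons from 190.0 to 356 and 9 of Purkinje cells from 79.1 to 168. In Hom against WT the astroglial markers had a median change of -0.86, with 6 of 9 lower at an unadjusted p under 0.05 and none called. The red blood cell markers had a median of -0.80, with 4 of 5 tested lower at that threshold and none called. Of the 12 tested markers of postmitotic granule neurons (median -0.30), Neurod1, Tubb3 and Slc17a7 were called lower and Grin2c higher. Of the 7 inhibitory interneuron markers (median 0.25, 6 positive), 1 was called lower. Over all genes in Hom against WT, 8.51% were higher and 6.42% lower at an unadjusted p under 0.05. By limma, 1.27% of all genes were called higher and 1.41% lower. The part of these markers in the results was not tested.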

How the data were processed

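Gene-level TPM values of 14 libraries were used as deposited by the authors, who mapped single-end reads to the mouse transcriptome (mm10) with Bowtie 1.0.0 and estimated expression with RSEM 1.2.15, both as given in the methods and the submitters' processing notes, with default settings. Each column summed to between 999999.14 and 1000000.79, so the values were taken as not corrected for batch. TPM keeps no read count, so the depth of each library is unknown from the files and no counting error was computed. TPM is relative: a change in a few abundant genes shifts all others. The control columns were matched to WT by replicate number, and no columns were identical.

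Symbols and positions came from GENCODE (GRCm38, the mm10 assembly). Log2(TPM + 1) of the 17325 genes with at least 1 TPM in at least 4 libraries was modelled on genotype and batch over the 14 libraries with limma 3.58.1 (R 4.3.3, eBayes with trend). Two-sided p-values were adjusted over all genes of a contrast by the Benjamini-Hochberg method. Changes are on the log2(TPM + 1) scale, which understates low genes. Differences between batches were an interaction term. The fit was tested on simulated data. The authors used ComBat and a Kruskal-Wallis test. As an alternative, batch was removed with removeBatchEffect and the Kruskal-Wallis statistic was compared with its 252252 arrangements (exact, unadjusted threshold 0.01), which ignores the degree of freedom spent on batch. Promoter letters were counted in Python 3. The members, lists and tests were chosen with earlier results of these data known.

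Named genes were 15 anchors, members called between genotypes, and in Hom and in Het the 3 S phase and 3 mitotic members with the largest rise and fall. Further genes named in the batch and interaction results were chosen after their values were seen, apart from called genes of the further lists (at most 6 a contrast, by adjusted p). A called gene of these lists is not reported here. Alternatives were pseudocounts of 0.1 and 0.5, other filters, median-ratio and quantile scaling, no batch term, each batch alone, only the genotypes compared, a replicate block, array weights, leaving out each library, WT libraries alone for the batch comparison and a shorter promoter window. The placement of Het 3 in batch 2, and all alternatives for the batch and interaction results other than WT libraries alone, were added after seeing the data.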

Additional observations from a re-analysis of the deposited data

Results flagged for a closer look

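In 129 groups of 4 or 5 libraries tested for a sample far from the others, 4 were flagged, where chance alone flags about 1 in 20. Mcm2 at 97.57 TPM in Hom 2 lay far below the other 3 Hom libraries. WT 5 lay far above the other WT libraries for Cdc6 (34.44 TPM), E2f1 (113.5 TPM) and Mcm5 (125.6 TPM). The other flags are opposite directions of the Hom change in the 2 batches. Both Hom libraries lay below all WT libraries in batch 1 and above them in batch 2 for 16 mitotic genes, a pattern of 4.14% of all genes. They lay above in batch 1 and below in batch 2, as for 3.91% of all genes, for 2 S phase genes (Cdt1 and Ccne1) and for 1 further gene, Chd7. The interaction test called none of these genes after adjustment, and the cause was not tested.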

How the results depend on the processing

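The single Hom call, Mcm6, was lost (0 S phase genes called) with genes above 0 TPM in at least 4 libraries, median-ratio scaling, each batch alone, only the 2 genotypes and the replicate block, and held in the other 7 limma settings. The exact Kruskal-Wallis test, which compares all 3 genotypes at an unadjusted 0.01, called 0 S phase genes. The Hom median of mitotic genes was -0.19 in batch 1 and 0.38 in batch 2. In the batch comparison the S phase count went from 5 to 3 with the lower filter, 2 in WT libraries alone, and 0 with the replicate block or with Het 3 placed in batch 2, and the mitotic count from 12 to 21 in WT libraries alone (median -0.55), 0 with the block and 1 with Het 3 placed in batch 2. Among the replicate numbers only 3 has libraries in both batches, with Hom 3 in batch 2 and WT 3 and Het 3 in batch 1. The blocked batch change rests on that contrast, less the genotype changes, which are estimated from the other replicate numbers. Over all genes the blocked fit called 1 higher and 3 lower between batches. With Het 3 placed in batch 2 the median Het difference between batches was 0.62 for mitotic genes. Replicate numbers are shared by genotypes, and whether they pair the libraries is not known. After genotype and batch were fitted, residuals of same-numbered libraries correlated at -0.23 to 0.26, and 3 of 13 pairs were over 0.1. Pairs with different numbers were not compared, so these values cannot decide whether the libraries are paired. Before the start site alone, CHR letters were in 40% of mitotic and 19.6% of all promoters, E2F letters in 2.16% and CCAAT in 37.5% of all. Leaving out 1 library, the Hom median was 0.018 to 0.14 for S phase and -0.0086 (without Hom 3) to 0.17 for mitotic genes, also negative without WT 4, the Het median was -0.011 to 0.085 and -0.074 to 0.083, the Hom S phase count was 0 to 1, the batch counts 2 to 6 (S phase) and 6 to 15 (mitotic), the Hom differences at unadjusted p under 0.05 numbered 2 to 7 (S phase) and 9 to 23 (mitotic), and the Het difference medians were -0.22 to -0.019 (S phase) and 0.075 to 0.41 (mitotic).

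Uncalled Hom changes reversed sign in batch 1 alone for Aurkb (-0.051), Birc5 (-0.20), Bub1b (-0.22), Ccne1 (0.21), Cdc6 (0.17), Foxm1 (-0.0050), Mki67 (-0.0041), Nusap1 (-0.17) and Plk1 (-0.30), in batch 2 alone for Ccnb1 (0.34), Cdc25c (0.14), Cdk1 (0.21), Cenpa (0.12) and Rrm2 (0.034), with the replicate block for Ccne1 (0.056), Pcna (0.013) and Rrm2 (0.017), and with array weights for Cdc6 (0.092) and Rrm2 (0.011). Het changes reversed in batch 1 alone for Bub1b (-0.023), Cdc6 (0.065) and Plk1 (-0.040) and in batch 2 alone for Ccnb1 (0.11), Cdc25b (-0.034) and Ncapg (0.019). Leaving out 1 library gave Hom changes of -0.0086 to 0.14 for Birc5, -0.16 to 0.058 for Ccnb1, -0.19 to 0.015 for Ccne1, -0.19 to 0.043 for Cdc25c, -0.15 to 0.078 for Cdc6, -0.11 to 0.062 for Cdk1, -0.021 to 0.37 for Plk1 and -0.11 to 0.055 for Rrm2, and Het changes of -0.0079 to 0.21 for Bub1b, -0.18 to 0.0067 for Cdc6 and -0.027 to 0.28 for Plk1. The cause of these shifts was not tested. With depth unknown, the number of libraries limits the precision.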
